A study of Rattus norvegicus with 24 samples.

Results

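The AP-1 transcription factor is a pair of leucine zipper proteins, built from members of the Fos and Jun families, that binds short DNA sites and switches its target genes on or off. Its 7 genes, Fos, Fosb, Fosl1 and Fosl2 of the Fos family and Jun, Junb and Jund of the Jun family, were chosen by gene name on the arrays, which gave 11 probes. Of these 7 genes, 6 were measured among the 20902 genes tested, and Fosl1 was not well above background on any array. Fos proteins cannot pair with each other and bind DNA only beside a partner such as a Jun protein, whereas Jun proteins also pair among themselves. In the striatum, Fos, Fosb and Junb are immediate early genes, induced in neurons by dopamine or glutamate input within minutes and silenced within hours. The exception known from work on repeated drug exposure is the truncated splice form of Fosb, whose protein is stable and builds up in striatal neurons.

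RNA was taken from the left dorsal striatum of male Long Evans rats, 80 to 90 days old, and each extract was hybridised to a single-colour expression array. All rats had 1 intraperitoneal injection on each of 5 days. The saline rats received saline on all 5 days, the acute rats saline on 4 days and MDPV on the last, and the chronic rats MDPV on all 5 days, at 1 mg/kg. MDPV (methylenedioxypyrovalerone) is a synthetic cathinone that blocks the dopamine and noradrenaline transporters. Tissue was collected 24 h after that final day's injection, so the acute group differs from the saline group by a single dose a day earlier. There were 8 arrays per group. The design text states 6 per group, and per group 4 titles are unique while another 4 arrays form pairs that share a title letter. Such pairs were averaged to give 18 units, 6 per group. The labels do not say whether each unit is a different rat, so the p-values measure the spread between these units.

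Of the 3 slides, the first and second carried the saline, acute and chronic groups as 3, 2 and 3 arrays, and the third as 2, 4 and 2. Between 50.7% and 71.3% of spots on an array were well above background and no spot was saturated. Saline replicate 3, with the lowest share, and acute replicate 7 were not well above background for Fosb, Fosl2 and Junb, and also not for Fos. The markers of striatal projection neurons were bright in all 18 units, with mean levels of 1.82 to 3.39 over the 10 markers measured. Saline replicate 4 stood apart. It had the lowest striatal marker level, 1.82, and the highest level of 6 hypothalamic markers, -0.90, where the next saline unit had -4.04, and of 5 thalamic markers, -0.50, where the next had -1.83. A level here is the log2 of a probe's processed signal minus the 75th percentile of its array, so 0 is a fairly bright probe, and levels of different probes cannot be ranked against each other. In whole tissue, fewer cells that express a gene and less RNA per cell cannot be told apart.

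None of the 6 measured genes passed the threshold between any of the treatment groups. No other gene on the array did in any comparison either, so the share called was 0% of 20902 genes in acute against saline, in chronic against saline and in chronic against acute (limma with Benjamini-Hochberg adjustment, threshold 0.05). Without adjustment, 333, 599 and 519 genes had a p under 0.05. Each count is less than the share of 0.05 that would have such a p on average if no gene differed. All 18 of the members' 95% intervals included 0. The precision differed between genes. The interval for acute against saline ran from 0.591-fold to 1.35-fold for Fos and from 0.856-fold to 1.11-fold for Jun, and that for Junb in chronic against acute reached 1.97-fold.

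**Figure D1:**
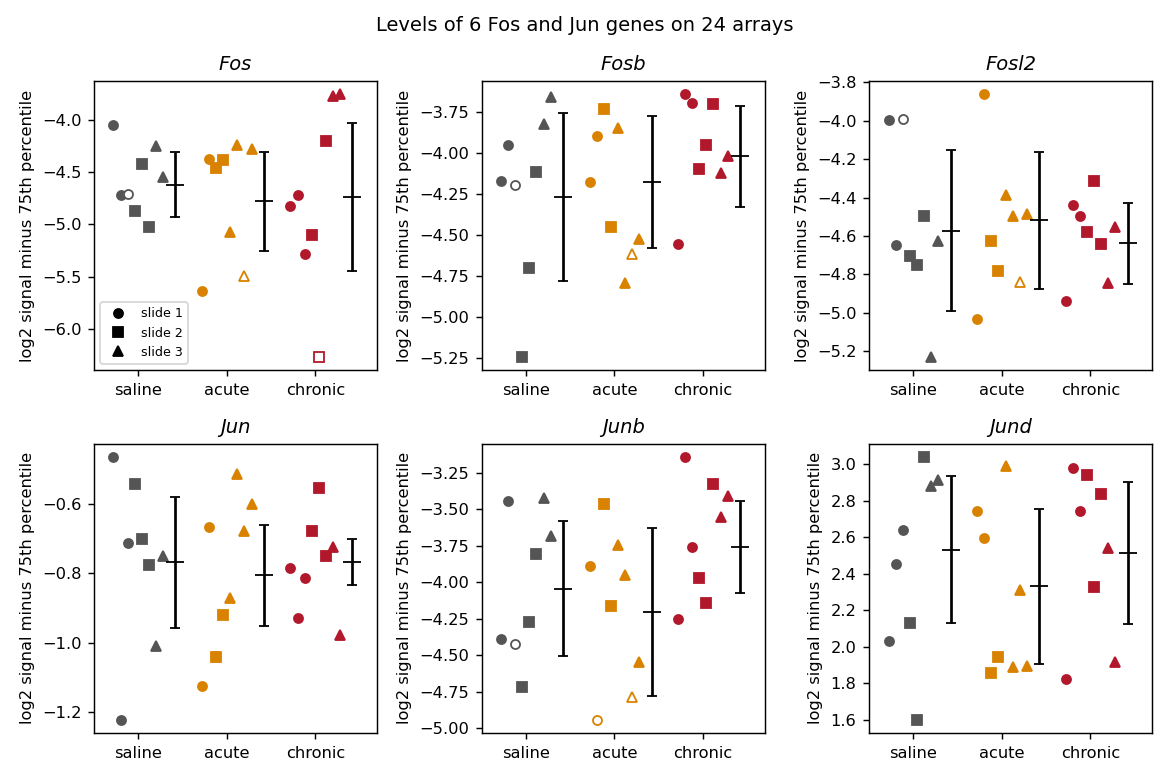
Level (log2 processed signal minus the array's 75th percentile) of 6 Fos and Jun genes on 24 arrays, by group. Points are arrays, with the shape giving the slide and open points those not well above background, and the bar beside each group is the mean and SD of its 6 units. The 3 groups overlap for every gene, the widest range being that of Fos and the narrowest that of Jun.

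Fos, the founding member and the most used marker of recently active neurons, was read by 1 probe on 2 spots at chr6:109561941-109562000 of the rat build rn4, plus strand. It was well above background on 21 of 24 arrays. The lowest, median and highest saline arrays had levels of -5.03, -4.62 and -4.05. The acute arrays had -5.64, -4.42 and -4.23, and the chronic arrays -6.27, -4.77 and -3.75. The chronic group thus held both the highest and the lowest array of the study, the latter, replicate 5, below the background limit, and it overlapped both other groups entirely. From lowest to highest, the arrays spanned 5.75-fold. The group means over 6 units were -4.62 ± 0.31 (SD) in saline, -4.78 ± 0.47 in acute and -4.74 ± 0.71 in chronic units. The differences were -0.16 (SE 0.28) for acute against saline and -0.12 (SE 0.28) for chronic against saline, with adjusted p of 0.99968 and 0.999469 (limma). The acute difference was -0.017 without acute replicate 7 and -0.25 without the acute pair of replicates 4 and 6. Within slides 1, 2 and 3, chronic minus acute was 0.07, -0.77 and 1.01, so the slides did not share a direction. The 2 spots of the Fos probe on 1 array differed with a median SD of 0.179, against 0.597 between arrays, and in the array where they differed most the SD was 1.06.

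Fosb, whose full-length and truncated proteins both pair with Jun proteins, was read by 1 probe at chr1:78666646-78666705, minus strand. It lies near the 3' end of the transcript and so reports both splice forms together. No ratio of the forms could be taken from these arrays. Fosb was well above background on 22 arrays. The saline arrays had levels of -5.25 (lowest), -4.14 (median) and -3.65 (highest), the acute arrays -4.80, -4.32 and -3.73, and the chronic arrays -4.55, -3.98 and -3.64. The lowest of all arrays was saline replicate 4. Means over units were -4.27 ± 0.51 (SD, n = 6) in saline, -4.18 ± 0.40 in acute and -4.02 ± 0.31 in chronic units. Chronic minus saline was 0.25 (SE 0.23; 95% interval -0.23 to 0.73; limma adjusted p = 0.999469). Without saline replicate 4 this difference was 0.05, and acute minus saline went from 0.09 to -0.10. Within slides, chronic minus saline was 0.14, 0.77 and -0.33.

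Fosl2, which encodes the Fos-related protein Fra-2, was read by 3 probes that differed among themselves. Its brighter probe was well above background on 22 arrays and stands for the gene. The other 2 probes share 1 sequence, and lie further along the transcript. One was well above background on 2 saline, 3 acute and 5 chronic arrays and the other on 2, 6 and 5. The sequences are shown so that the probes can be told apart.
Fosl2 brighter probe: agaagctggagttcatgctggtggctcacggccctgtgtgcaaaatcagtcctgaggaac
Fosl2 dimmer probes: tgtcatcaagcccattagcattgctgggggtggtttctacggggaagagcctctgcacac
On the brighter probe, saline arrays had levels of -5.23 (lowest), -4.64 (median) and -3.99 (highest), acute arrays -5.03, -4.56 and -3.86 and chronic arrays -4.94, -4.57 and -4.32. The chronic arrays were the most alike, with an SD over units of 0.21 against 0.42 in saline and 0.36 in acute units. Chronic minus saline was -0.07 (SE 0.19; limma adjusted p = 0.999469) on the brighter probe. No difference is given for the dimmer probes, which lay below the background limit on 6 of 8 saline arrays. Over 24 arrays the dimmer probes correlated with each other at r = 0.477 (rho = 0.415; permutation, adjusted p over 5 probe pairs = 0.0271 for r), and with the brighter one at 0.131 and -0.111. Over all groups the dimmer probes were well above background on 10 and 13 of 24 arrays.

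Fosl1, which encodes Fra-1, was read by 1 probe at chr1:208099035-208099094, plus strand, and was not well above background on any of the 24 arrays. Its processed signals ran from 4.05 to 21.8, and no difference was computed for it. This bounds the RNA at this probe and does not show that the gene was silent.

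Jun, which encodes the best known partner of the Fos protein, was the steadiest member. Of its 2 probes, one lay on 10 spots of every array, at chr5:115358764-115358823, minus strand, and the other on 1 spot at chr5:115359410-115359469, and both were well above background on all 24 arrays. On the first, saline arrays had levels of -1.22 (lowest), -0.73 (median) and -0.47 (highest), acute arrays -1.12, -0.77 and -0.51 and chronic arrays -0.98, -0.77 and -0.55. Means over units were -0.77 ± 0.19 (SD, n = 6), -0.81 ± 0.15 and -0.77 ± 0.07. The group medians lay within 0.05 of each other in a range of 0.76 over all arrays. Chronic minus saline was 0.0006 (SE 0.089), with a 95% interval from 0.879-fold to 1.14-fold, and Jun had the smallest standard error of the family. The 10 spots of this probe on 1 array had a median SD of 0.0534, well under the 0.196 between arrays. In the array where the spots differed most, their SD was 0.186. The second probe gave -0.16 (SE 0.13) for acute and -0.10 (SE 0.13) for chronic against saline. Over 24 arrays the 2 probes correlated at r = 0.623 (rho = 0.491; permutation, adjusted p for r = 0.00327).

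Junb, an early gene whose protein is a weaker activator than Jun and can hold Jun back, had the largest difference of means among the probes that stand for their genes. It was read by 1 probe at chr19:24832781-24832840, plus strand, well above background on 7 of 8 saline, 6 of 8 acute and 8 of 8 chronic arrays. Saline arrays had levels of -4.72 (lowest), -4.04 (median) and -3.42 (highest), acute arrays -4.94, -4.06 and -3.46 and chronic arrays -4.25, -3.65 and -3.14. Chronic arrays thus sat toward the top, but the 3 groups overlapped, and the highest saline and acute arrays exceeded the chronic median. Means over units were -4.04 ± 0.46 (SD, n = 6) in saline, -4.20 ± 0.58 in acute and -3.76 ± 0.32 in chronic units. Chronic minus acute was 0.45 (SE 0.25; 95% interval -0.08 to 0.98; limma adjusted p = 0.960215), which is 1.36-fold. The lowest acute arrays, replicates 2 and 7 at -4.94 and -4.78, were those not well above background. Over the other settings and left-out units, chronic minus acute ran from 0.27 to 0.59. Within slides it was 0.70, -0.0009 and 0.78. Chronic minus saline was 0.29 (SE 0.25), and 0.37, 0.45 and 0.08 within slides. This and chronic minus acute for Fosb were the only 2 of 18 differences with 1 sign on all 3 slides. A slide held 2 to 4 arrays of a group, and the sharing of a sign was not tested. Without saline replicate 4, chronic minus saline for Junb was 0.15.

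The protein-coding parts of Jun and Junb are alike, so the second Jun probe and the Junb probe were compared. Capitals mark the bases that match when the probes are aligned without gaps, 29 of 47 aligned bases, the highest identity between probes of different members, 61.7%.
Jun second probe: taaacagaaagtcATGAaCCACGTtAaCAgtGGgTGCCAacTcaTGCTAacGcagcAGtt
Junb probe: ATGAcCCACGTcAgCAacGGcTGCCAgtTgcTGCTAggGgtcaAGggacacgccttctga
The Junb probe ends with the stop codon tga.

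Jund, expressed at a steady level in many tissues and little moved by activity, was read by 2 probes, both well above background on all 24 arrays, at chr16:19239707-19239766 and chr16:19240333-19240392, minus strand. The first, brighter one stands for the gene. Saline arrays had levels of 1.60 (lowest), 2.55 (median) and 3.04 (highest), acute arrays 1.86, 2.13 and 2.99 and chronic arrays 1.82, 2.64 and 2.98. The acute median was the lowest, though the acute arrays spanned nearly the same range as the others. Acute minus saline was -0.20 (SE 0.22; limma adjusted p = 0.99968), and 0.29, -0.36 and -0.62 within slides. It ran from -0.33 without acute replicate 5 to -0.098 without saline replicate 6. The other probe gave -0.14 (SE 0.19). The 2 probes followed each other closely over 24 arrays, with r = 0.864 (rho = 0.879; permutation, adjusted p over 5 probe pairs = 5e-05 for r), and with r of 0.768, 0.937 and 0.926 within slides.

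**Figure D2:**
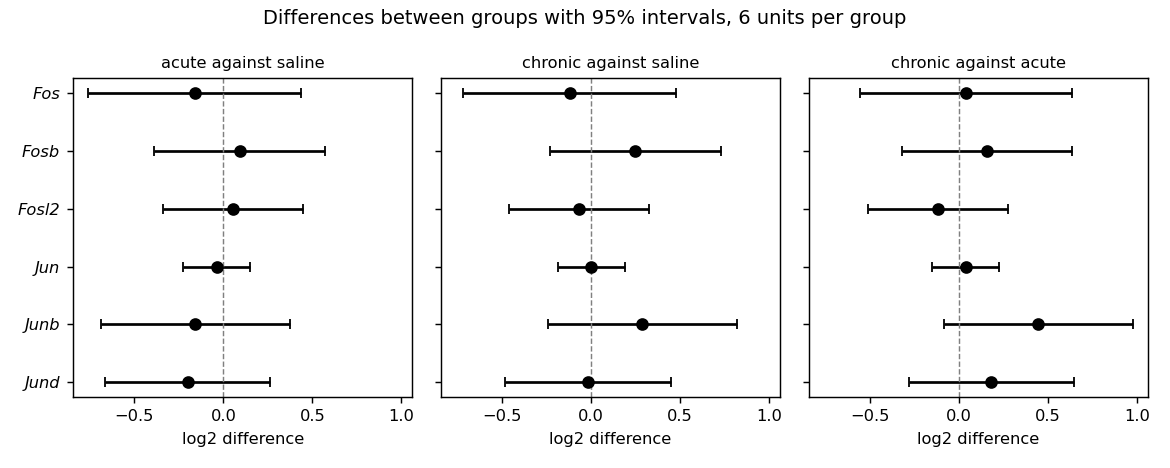
Difference between groups in level (log2, horizontal axis) of 6 Fos and Jun genes, with 95% intervals from the fit over all genes, for acute against saline, chronic against saline and chronic against acute, 6 units per group. Each of the 18 intervals crosses 0, and those of Jun are the narrowest.

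The members differed in how much they varied between units of 1 group. The SD within groups, over 18 units, was 0.525 for Fos, 0.464 for Junb, 0.418 for Fosb, 0.405 for Jund, 0.340 for Fosl2 and 0.142 for Jun, where the median of all genes tested was 0.245. Fos varied more than 90.4% of all genes, Junb more than 85.4% and Fosb more than 80.4%, while 16.7% varied less than Jun. Over the 24 arrays the share below Jun was 28.3%. The Jun probe alone was averaged over 10 spots, and the 1-spot Jun probe had a larger standard error of the group difference, 0.13 against 0.09. Spread can depend on brightness, so each was also set against genes within 0.5 of its own level. Among these, Fos exceeded 87.0%, Junb 87.5%, Fosb 80.1%, Fosl2 50.5% and Jun 27.6%. Jund exceeded 97.1% of 697 genes as bright, the highest share of the family. These are descriptions, with no test.

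**Figure D3:**
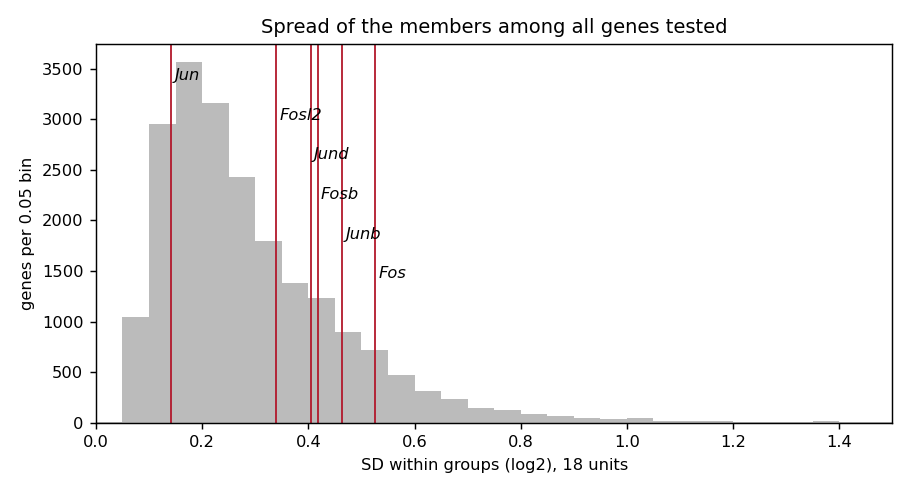
Number of genes (vertical axis) by SD within groups over 18 units (log2, horizontal axis, bins of 0.05, up to 1.5), with a line for each of 6 Fos and Jun genes. Jun lies at 0.142, left of the all-gene median of 0.245, and Fos lies at 0.525, in the right tail.

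The 6 pairs of arrays with a shared letter did not resemble each other more than other arrays of a group in every gene. The median gap within such pairs was 0.472 for Fos, 0.345 for Fosb and 0.202 for Fosl2, below the 0.571, 0.423 and 0.311 of the 78 other pairs within groups. For Jun, Junb and Jund the gap was larger within letters, 0.390, 0.679 and 0.847, than between, 0.199, 0.490 and 0.447. The arrays of a shared letter always lay on different slides. Among the 56 other pairs on different slides the median gaps were 0.544, 0.436 and 0.352 for Fos, Fosb and Fosl2 and 0.205, 0.421 and 0.437 for Jun, Junb and Jund. In 5 of the 6 letters the Jund levels of the 2 arrays were between 0.654 and 0.917 apart, and in letter F 0.055. Over all genes tested, limma's consensus correlation between the 2 arrays of a letter was -0.366, with slide not in the fit. A value below 0 means that these arrays were less alike than other arrays of a group.

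Fos and Jun genes that work as partners may vary together from unit to unit, and 15 pairs were compared over the 18 units (two-sided permutation, adjusted over 15 pairs). None passed the threshold by Pearson's r. The strongest was an opposition. Jun was low where Junb was high, with r = -0.656 (permutation p = 0.00338, adjusted p = 0.0507) and rho = -0.703 (adjusted p = 0.0196). It was -0.827 in saline, -0.873 in acute and -0.341 in chronic units, -0.683, -0.603 and -0.657 within slides 1, 2 and 3, and -0.553 without the 2 units with the most extreme Jun levels. With quantile normalization it was -0.702 (adjusted p = 0.0184). With the second Jun probe in place of the first, however, r was -0.184 (adjusted p = 0.631), so the opposition was not seen with that probe, and the difference between the probes was not tested. Without saline replicate 4 it was -0.589 (adjusted p = 0.189).

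Fosb and Junb were high together, with r = 0.611 (permutation p = 0.00689, adjusted p = 0.0517) and rho = 0.678 (adjusted p = 0.0196). The value was 0.464, 0.912 and 0.710 within slides and 0.555 without the 2 units with the most extreme Fosb levels. Without acute replicate 2 it was 0.804 (adjusted p = 0.0015), and without saline replicate 4 it was 0.521 (adjusted p = 0.208). Fosb and Jund had r = 0.499 (rho = 0.507; permutation, adjusted p = 0.156 for r), with 0.781, 0.413 and 0.776 within slides and 0.672 (adjusted p = 0.0394) without acute replicate 3. Fosb and Jun had r = -0.485 (rho = -0.463; permutation, adjusted p = 0.156 for r), which was 0.067 with the second probe. No pair with Fos was near the threshold. Its 5 values of r lay between -0.232 with Jund and 0.295 with Junb, and within slides its r with Fosl2 was 0.744, -0.870 and -0.0726.

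**Figure D4:**
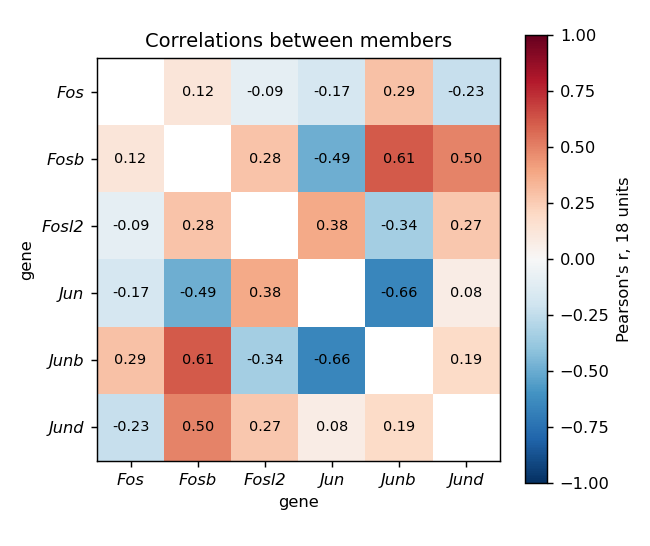
Pearson's r over 18 units between the levels of 6 Fos and Jun genes, printed in each cell and coloured from -1 (blue) to 1 (red). Junb has 0.61 with Fosb and -0.66 with Jun, and the row of Fos holds values between -0.23 and 0.29.

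**Figure D5:**
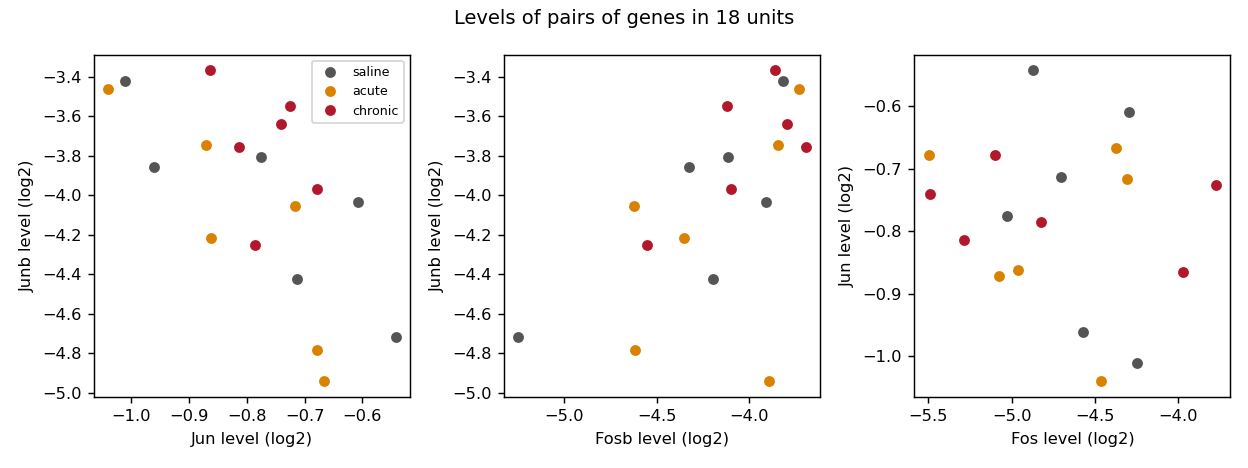
Levels (log2) of pairs of genes in 18 units, coloured by group, for Junb against Jun, Junb against Fosb and Jun against Fos. Junb falls along the Jun axis with r = -0.656 and climbs along the Fosb axis with r = 0.611, and Jun against Fos has r = -0.168.

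The promoters of Fosb, Junb and Jund, the members with the 2 highest r between them, are shown as RefSeq gives them for the rat build GRCr8, from 250 bases before the gene's start to 50 after it. Of the 7 members, 5 had such an entry, of which 3 are shown. Capitals mark matches on either strand to the cyclic AMP response element (CRE, TGACGTCA), its core (CGTCA), the AP-1 site (TGANTCA), the CArG box bound by serum response factor, or the TATA box (TATAAA).
Fosb promoter, chr1:88089135-88089434, minus strand: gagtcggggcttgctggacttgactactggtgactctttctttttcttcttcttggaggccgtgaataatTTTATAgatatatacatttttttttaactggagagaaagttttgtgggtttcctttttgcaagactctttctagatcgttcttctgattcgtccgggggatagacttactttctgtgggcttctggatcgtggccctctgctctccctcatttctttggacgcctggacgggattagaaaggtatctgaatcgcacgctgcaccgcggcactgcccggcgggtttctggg
Junb promoter, chr19:40080876-40081175, plus strand: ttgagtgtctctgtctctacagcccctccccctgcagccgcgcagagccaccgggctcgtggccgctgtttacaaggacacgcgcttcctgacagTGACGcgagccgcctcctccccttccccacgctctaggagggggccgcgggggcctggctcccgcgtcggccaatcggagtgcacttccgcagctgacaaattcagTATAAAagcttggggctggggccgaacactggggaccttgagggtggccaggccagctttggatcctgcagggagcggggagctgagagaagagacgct
Jund promoter, chr16:18769722-18770021, minus strand: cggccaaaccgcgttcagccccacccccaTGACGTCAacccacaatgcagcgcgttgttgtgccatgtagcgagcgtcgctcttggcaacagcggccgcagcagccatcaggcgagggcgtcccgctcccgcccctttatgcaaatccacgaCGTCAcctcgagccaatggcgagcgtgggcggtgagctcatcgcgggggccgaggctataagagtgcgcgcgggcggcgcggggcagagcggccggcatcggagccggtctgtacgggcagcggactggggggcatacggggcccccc
The Jund window held a whole CRE, beginning 221 bases before the start, and a separate core beginning 98 bases before it. The whole CRE holds the core on each strand, which makes 3 core matches in all. A whole CRE was found in 1.83% of the 33469 promoter windows and a core in 21.2%. The Junb window held 1 core, beginning 155 bases before the start, and a TATA box beginning 49 bases before it. The Fosb window held a TATA box match on the other strand, beginning 180 bases before the start, and no match to the other motifs. A TATA box match was found in 14.2% of windows, an AP-1 site in 7.33% and a CArG box in 1.64%, and neither of the last 2 was found in any of the 5 windows. A match describes letters and is not a bound site.

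Markers of neighbouring tissue varied between units, and the members' levels were set beside them. Of 60 relations between the 6 genes and the mean levels of 10 marker lists, none passed by Pearson's r and 2 did by Spearman's rho (two-sided permutation, adjusted over 60). Jun was low where the markers of striatal projection neurons were high, with r = -0.670 (permutation, adjusted p = 0.0504) and rho = -0.721 (adjusted p = 0.0354), and with -0.719, -0.677 and -0.820 within slides. Jund was high where the markers of cortical excitatory neurons were high, with r = 0.683 (permutation, adjusted p = 0.0504) and rho = 0.802 (adjusted p = 0.0072), and with 0.498, 0.828 and 0.507 within slides. Without the 2 units with the most extreme marker levels these r were -0.564 and 0.765. Junb had r = 0.553 with the striatal list and -0.545 with the thalamic list (permutation, adjusted p = 0.123 for both, rho = 0.476 and -0.585). Jund had r = 0.577 with the endothelial and mural list (rho = 0.604; permutation, adjusted p = 0.123 for r), 0.660 without the 2 most extreme units and 0.657, 0.760 and 0.552 within slides. With the striatal list Fosb had r = 0.582 (rho = 0.362; permutation, adjusted p = 0.134 for r), and 0.140 without the 2 most extreme units. Fosb had r = 0.568 with the cortical list (rho = 0.379; permutation, adjusted p = 0.123 for r), and 0.155 without the 2 most extreme. Fosb had r = -0.689 with the hypothalamic list and -0.673 with the thalamic list (permutation, adjusted p = 0.123 for both, rho = -0.321 and -0.416), but these rested on a few units, and without the 2 most extreme, saline replicate 4 among them, r was -0.239 and -0.145. With the striatal marker level as a covariate, an alternative chosen after seeing the data, r of Jun and Junb was -0.462 (permutation, adjusted p = 0.268) and r of Fosb and Junb 0.427 (adjusted p = 0.291). The mean striatal marker level was 2.90 ± 0.59 (SD, n = 6) in saline, 3.12 ± 0.21 in acute and 3.08 ± 0.27 in chronic units. The choroid plexus list, with 7 markers measured, differed more, with -1.81 ± 1.63 (SD, n = 6) in saline, -2.91 ± 0.76 in acute and -3.50 ± 1.37 in chronic units. Fosb had r = -0.496 with that list (rho = -0.521; permutation, adjusted p = 0.193 for r), and -0.296 without the 2 most extreme units. Its part in the Fosb levels was not tested. No member's level passed the threshold against the share of spots well above background, adjusted over 6 relations. By Pearson's r Junb came closest, with r = 0.549 (rho = 0.389; permutation, adjusted p = 0.11 for r), and 0.347 without the 2 most extreme units. By rank Jun did, with rho = -0.552 (permutation p = 0.0196, unadjusted) and r = -0.448 (adjusted p = 0.123).

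The genes most like each member were found from the deviations from the group means over 18 units, among 12733 genes with a symbol. For Fos the 5 highest r were those of Tead2 (0.878), Egfr (0.756), Knstrn (0.750), Oacyl (0.738) and Arc (0.718). Arc, which encodes a synaptic protein, is itself an immediate early gene. For Fosb they were Sohlh1 (0.920), Palm (0.90), Mn1 (0.897), Adra2b (0.896) and Plg (0.892), and for Junb Ubp1 (0.847), Mfhas1 (0.832), Setmar (0.832), Lst1 (0.829) and Kdm4d (0.825). For Jund they were Setd5 (0.952), Emg1 (0.948), Eid1 (0.939), Atxn7l3 (0.936) and Asmtl (0.931), for Jun Map1b (0.875), Abca3 (0.862), Palm3 (0.845), Sumo3 (0.844) and Tspan1 (0.841), and for Fosl2 Kcnma1 (0.891), Polm (0.890), Phb-ps1 (0.872), Rmi2 (0.866) and Ccl22 (0.860). Members were left out of these lists. Each list holds the highest of 12733 values over the same 18 units, and how high such values run by chance was not computed. The member ranked nearest to another was Fosb, which stood at 967 of 20836 genes in likeness to Junb. Jun stood at 20809 of 20836 in likeness to Junb, near the bottom.

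Of 27 other immediate early genes, 25 were measured. The deviations of Junb correlated above 0 with 21 of these 25, those of Fos with 19, of Fosb with 18, of Jund with 13 and of Jun and Fosl2 with 11 each. The highest for Junb was the zinc finger gene Egr3 (0.775), with Arc at 0.653 and the nuclear receptor gene Nr4a1 at 0.634. Fos had 0.718 with Arc and 0.672 with Nr4a1, and Fosb had 0.635 with Egr1. Jun went the other way with several of them, at -0.693 with Egr3, -0.527 with Arc and -0.514 with Egr1. Jund ranged from -0.710 with the clock gene Per1 to 0.745 with Trib1. The share of all genes above 0 was not computed, so the counts out of 25 have no background beside them. They cannot be compared between members, because the same r stood at different ranks for different members. Among all 20836 genes, r = 0.154 stood at 9552 in likeness to Fosb, 0.139 at 9379 to Junb and 0.046 at 10833 to Jund. In likeness to Fos, 0.154 stood at 4455, and in likeness to Jun, 0.046 at 7758. Of higher values, 0.602 stood at 2558 for Fosb and at 967 for Junb, and 0.527 at 3350 for Jund. These are descriptions over 18 units, whose 24 arrays shared 3 slides.

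None of these 25 genes passed the threshold between groups (limma, smallest adjusted p in the list 0.960215). In chronic against saline 19 of 25 differences were above 0 (56.5% over all genes), with a median of 0.15 where the median of all genes was 0.02. In acute against saline 18 were above 0 (49.1% over all genes), with a median of 0.06 against -0.002 for all genes. In chronic against acute 17 were above 0 (56.5% over all genes), with a median of 0.07 against 0.02 for all genes. The smallest p in chronic against saline belonged to Dusp1, a phosphatase that switches off the kinases upstream of AP-1, at 0.63 (SE 0.28; adjusted p = 0.999469), followed by Egr3 at 0.58 (SE 0.30). Arc had 0.21 (SE 0.30), Nr4a1 0.18 (SE 0.25), Btg2 0.19 (SE 0.15), Egr1 0.14 (SE 0.25), Ier2 -0.004 (SE 0.11) and Klf4 -0.06 (SE 0.18) in the same comparison. Npas4 and Atf3 were not measured.

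The lists of genes that act with or on AP-1 held no gene past the threshold in any comparison. Over all genes, 49.1% of differences were above 0 in acute against saline and 56.5% in chronic against saline, with medians of -0.002 and 0.02, and the counts below stand beside those shares. Of 16 dimer partners other than Fos and Jun proteins 13 were measured, with a median of 0.04 in acute against saline (9 of 13 above 0) and 0.03 in chronic against saline (8 of 13). Batf3, a small leucine zipper protein that pairs with Jun proteins, had the smallest p in acute against saline, at 0.39 (SE 0.19; limma adjusted p = 0.99968). All 26 upstream kinases and transcription factors were measured, with 19 above 0 and a median of 0.09 in acute against saline, and 17 above 0 and a median of 0.05 in chronic against saline. Rps6ka2, a kinase of the ERK pathway, had 0.30 (SE 0.13; limma adjusted p = 0.999469) in chronic against saline, and Map2k1, the kinase that activates ERK, 0.21 (SE 0.12). Of 11 genes of Fos and Jun decay, splicing and protein turnover 9 were measured, of which 5 of 9 were above 0 in acute against saline, with a median of 0.04, and 2 of 9 in chronic against saline, with a median of -0.05. Zfp36l2, an RNA-binding protein that speeds the decay of early gene transcripts, had -0.14 (SE 0.13). Of 8 striatal genes reported to respond to FosB all were measured, with 5 of 8 above 0 and a median of 0.03 in chronic against saline. Pdyn, which encodes prodynorphin, had 0.33 (SE 0.20) in acute against saline and -0.40 (SE 0.20; limma adjusted p = 0.960215) in chronic against acute. Of 10 genes that AP-1 drives in other tissues 5 were measured. Of these 5, 2 were above 0 in acute against saline with a median of -0.07, and 4 in chronic against saline with a median of 0.12, among them Hmox1, heme oxygenase, at 0.28 (SE 0.21).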

How the data were processed

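Each array's scanner output was deposited. Per the file headers, the processed signal is an intensity from which the authors' scanner software took the background and the spatial trend of each array, without scaling one array to another. Per the submitters' processing notes the software was Agilent Feature Extraction 10.7. The other columns used were, per the file headers, mean and local background intensities and flags of 0 or 1. The authors' deposited value table gives log2 values in the same rank order as those signals, and how it was made is not given in the sources used here. Coordinates of probes follow the rn4 build named in those headers.

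A level was the log2 signal less the 75th percentile of all non-control spots on that array, without spots flagged as outliers. The filter kept 26259 of 45598 probes, each detected above background in a share of 0.5 or more of some group's arrays, and the probe with the highest mean stood for its gene. Groups were compared over 18 units with limma 3.58.1 in R 4.3.3, all groups sharing 1 estimate of the spread, and adjusted over 20902 genes. The threshold of 0.05 is on the adjusted p. Correlations used 100000 permutations in Python 3.11.15 with numpy 2.4.6. Both were tested on simulated data. Other settings tried were normexp correction (offset 50), quantile normalization, the deposited values, other probe filters, 24 arrays, letter and slide blocks, and each unit left out. The other probe of Jun and Jund and the striatal covariate were chosen after seeing the data. The genes named are the members, the 5 most alike each member, up to 4 of each list with the smallest p in each comparison and a set of immediate early genes given whatever their values. Members and lists were chosen with earlier results of these data known. Arrays carry no read depth, and their number limits the precision.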

Additional observations from a re-analysis of the deposited data

How the results depend on the processing

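Over 11 other settings and 18 left-out units, 510 member differences were recomputed. Of these 464 kept their sign and 46 did not, and none passed the threshold (smallest adjusted p 0.461, limma). Part of the 510 could not change sign, so the 464 overstate how stable the signs were. Leaving out a unit of the group not compared, or changing only how the spread was estimated, leaves a difference as it was. No gene passed under any setting. With normexp background correction, Fos was 0.055 in acute and 0.083 in chronic against saline, Fosl2 0.14 and Jun -0.00030 in chronic against saline. With quantile normalization, Jun was -0.011 in chronic against saline and Fos -0.065 in chronic against acute, with the authors' values -0.0059 and -0.052, and with outlier spots kept Jun was -0.00019. With 24 arrays, acute against saline was -0.024 for Fosb and -0.0091 for Fosl2, and chronic against saline -0.0039 for Jun and 0.053 for Jund. With the letter as a random block these were -0.10, -0.051, -0.0070 and 0.10, and chronic against acute was -0.018 for Fos and 0.019 for Fosl2. That fit used a letter correlation below 0, -0.366. In it 690 genes had an unadjusted p under 0.05 in acute against saline, against 333 in the main fit (limma). Both are less than a share of 0.05 of the 20902 genes. With slide as a block Fosb was -0.026 in acute, and Jun -0.0039 and Jund 0.053 in chronic against saline.

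Leaving out 1 unit, acute against saline ran from -0.10 to 0.18 for Fosb, -0.079 to 0.17 for Fosl2 and -0.086 to 0.0094 for Jun. Chronic against saline ran from -0.32 to 0.029 for Fos, -0.20 to 0.049 for Fosl2, -0.048 to 0.046 for Jun and -0.12 to 0.12 for Jund. Chronic against acute ran from -0.15 to 0.19 for Fos, -0.18 to 0.012 for Fosl2 and -0.0088 to 0.066 for Jun. Differences that kept their sign also moved: in acute against saline Fos ran from -0.25 to -0.017, Junb from -0.30 (without acute replicate 3) to -0.0091 (without acute replicate 2) and Jund from -0.33 to -0.098. The number of member pairs past the threshold, 0, was 1 with quantile normalization, normexp, the authors' values or deviations from group means, 2 by Spearman's rho, 3 with 24 arrays, 4 with deviations from slide means and 0 to 2 without 1 unit. With the other probe of Jun and Jund it was 1, Fosl2 and Jun (r = 0.655, adjusted p = 0.0399), and Fosb and Jun had 0.067. The cause was not tested. Jun and Junb passed without 8 of 18 units. With normexp the SD was 0.333 for Fos, 0.258 for Fosb, 0.197 for Fosl2 and 0.288 for Junb. No paired analysis was possible because replicate numbers were given in accession order.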
